A study of Homo sapiens with 6 samples.

Results

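Keratins and vimentin are the proteins of the cytoplasmic intermediate filaments, and 9 of their genes were followed in Huh7 cells: KRT7, KRT8, KRT10, KRT18, KRT19, KRT80, KRT81, KRT86 and VIM. They were taken by symbol from a table of 20289 genes, and each symbol matched 1 row. Huh7 is a human hepatocellular carcinoma line, an epithelial tumour line of liver origin, and its poly(A) RNA was sequenced in 3 wild-type libraries and 3 libraries of cells with a knockout of UBE2S, which extends ubiquitin chains on substrates of the anaphase-promoting complex. The series asked which genes lie downstream of UBE2S. No source used here gives how the knockout was made, whether it is 1 clone or whether the replicates are separate cultures, so p-values cover the spread between these libraries alone, which may be technical, and an effect of UBE2S cannot be told apart from a difference between the lines.

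Keratins come in an acidic class, type I, and a basic class, type II, and a filament is built from pairs of one of each. Hepatocytes make almost only KRT8 with KRT18, while bile duct cells add KRT7 and KRT19. Vimentin, of type III, forms filaments by itself and is typical of mesenchymal cells, and many carcinoma lines in culture make it beside their keratins. Among the 9 genes, KRT7, KRT8, KRT80, KRT81 and KRT86 are of type II and KRT10, KRT18 and KRT19 of type I.

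The proteins share a central coiled rod, and the start of the rod is its most conserved stretch. It is shown for 7 members as 57 bases of coding sequence, because it is the part that makes them 1 family and shows how alike these members are there. The sequences come from GENCODE release 29 transcripts (GRCh38), are written 5′ to 3′ on the coding strand, and have in capitals the 20 bases that are the same in all 7.
KRT80: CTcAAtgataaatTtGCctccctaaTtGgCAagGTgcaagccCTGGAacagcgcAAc
KRT81: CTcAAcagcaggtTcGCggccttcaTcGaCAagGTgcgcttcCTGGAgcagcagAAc
KRT86: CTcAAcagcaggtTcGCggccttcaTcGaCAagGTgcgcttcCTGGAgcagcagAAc
KRT10: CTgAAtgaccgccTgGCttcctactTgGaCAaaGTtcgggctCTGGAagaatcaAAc
KRT18: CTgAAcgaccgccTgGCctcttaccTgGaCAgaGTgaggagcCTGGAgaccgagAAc
KRT19: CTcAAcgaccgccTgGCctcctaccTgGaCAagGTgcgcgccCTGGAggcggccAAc
VIM: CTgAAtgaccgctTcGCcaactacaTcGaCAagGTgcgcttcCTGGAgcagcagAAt

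KRT81 and KRT86, a pair of hair keratin genes, had the same letters throughout this stretch and 89.6% identity over their aligned coding sequences. KRT19 matched KRT18, another type I keratin of simple epithelia, at 45 of the 57 bases, and KRT10 matched it at 40. Vimentin matched KRT18 at 38 bases and KRT81 at 46. In the 3 type I genes shown and in VIM the stretch lay within exon 1 of the transcript used (chr12:52949432-52949488 for KRT18, chr10:17229750-17229806 for VIM), whereas in the type II genes KRT80, KRT81 and KRT86 an intron split it (chr12:52185564-52191635 for KRT80, between exons 1 and 2).

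The members lie in 3 places of GRCh38. The 5 type II genes and KRT18 are on chromosome 12, KRT10 and KRT19 on chromosome 17, and VIM on chromosome 10 from 17228259 to 17237593 on the plus strand. KRT8 (52897187 to 52949954, minus strand) and KRT18 (52948871 to 52952901, plus strand) overlap by 1084 bases at their 5′ ends. Of all windows of 100 bases along the KRT18 transcript, 16.6% also occurred in a transcript of KRT8, on the opposite strand included. Of those along the VIM transcript, 33.7% also occurred in VIM-AS1 or another gene, and VIM-AS1, an antisense gene, was not analysed here. No source used here gives a strand setting for the counting, so reads of such partners cannot be told apart. KRT10 lies across from TMEM99 in the same way, although none of its windows of 100 bases was shared.

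Library totals ranged from 21840499 to 27910396 estimated counts, with 15442 to 15694 genes detected in each. UBE2S, the targeted gene, was measured at 234, 220 and 216 CPM in wild type and at 47.6, 45.4 and 44.2 CPM in the knockout (CPM, the usual depth-scaled count, here on library sizes adjusted for composition by TMM). Its log2 fold change was -2.29 (SE 0.04, edgeR adjusted p = 1.6e-12). Wild-type replicate 1 stood apart. Over all tested genes its counts gave a chi-square of 8.37 and 10.9 times the degrees of freedom when set against replicates 2 and 3. For replicates 2 and 3 against each other it was 1.79 times. Member values and ratios that rest on wild-type replicate 1 are given with and without it. All 10 hepatocyte markers were detected. Every fold change below is knockout over wild type from a fit across all 13265 tested genes, and a gene is called changed at an edgeR adjusted p below 0.05.

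Of the 9 members, 5 were expressed and 4 were at or near 0 in every library. In the knockout the hepatocyte pair KRT8 and KRT18 rose slightly, by 12.1% and 21.1%, and KRT10 rose by 35.9%. KRT19 did not pass the test. VIM fell by 33.7%. So 3 of the 5 tested members rose and 1 fell, beside 29.4% of all tested genes that were called higher and 30.7% that were called lower. Calls in either direction covered 60.1% of all tested genes, so a call by itself sets no member apart. The groups did not overlap for 4 of the 5, as for 65.8% of all tested genes. A median tested gene had an absolute log2 fold change of 0.23. Of all tested genes, 8.25% fell more than VIM, and 42.8% had a larger absolute change than KRT18.

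**Figure D1:**
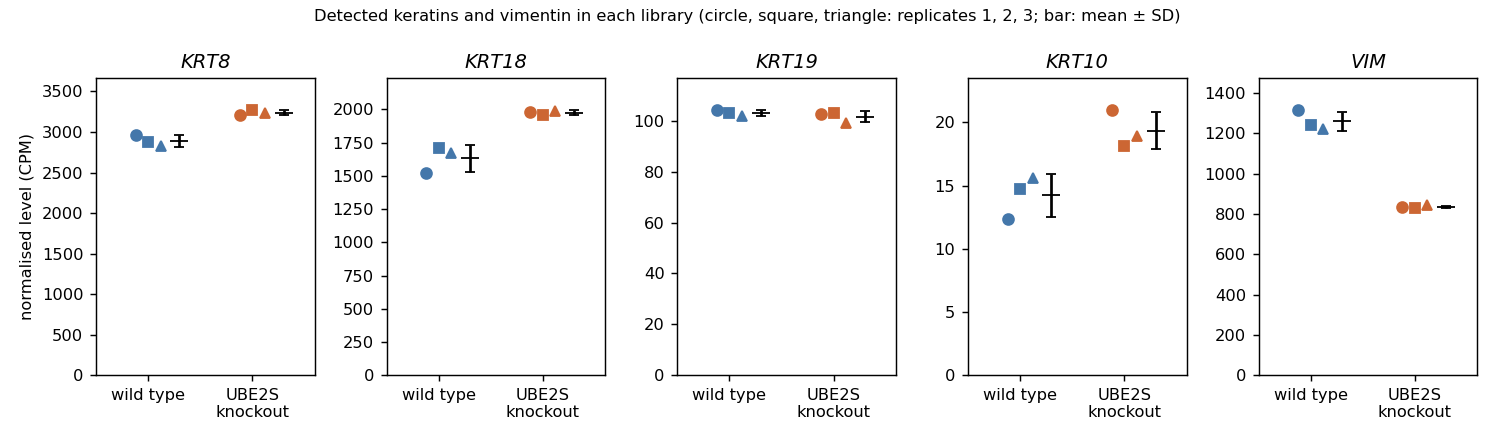
Normalised level in CPM (linear axes from 0) of the 5 expressed members in each wild-type and UBE2S knockout library, with mean ± SD over 3 libraries beside the points. The groups are apart for KRT8, KRT18, KRT10 and VIM, and overlap for KRT19.

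KRT8, the type II keratin of hepatocytes, was the most abundant member. It was at 2968, 2874 and 2823 CPM in the wild-type libraries and at 3212, 3268 and 3236 CPM in the knockout libraries. Every knockout value lay above every wild-type value, although the gap was small. The log2 fold change was 0.17 (SE 0.03, edgeR adjusted p = 2.2e-04). KRT18, its type I partner, was at 1519, 1707 and 1672 CPM in wild type and at 1984, 1956 and 1989 CPM in the knockout. Here too the groups were apart, and wild-type replicate 1 was the lowest of all 6 libraries. The log2 fold change was 0.28 (SE 0.04, edgeR adjusted p = 5.1e-05), and 0.23 without wild-type replicate 1. The pair together made up 0.440% to 0.458% of each wild-type library and 0.523% to 0.524% of each knockout library.

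KRT19, a type I keratin of bile duct and progenitor cells, was at 104, 103 and 102 CPM in wild type and at 103, 103 and 99.1 CPM in the knockout. The groups overlapped. Its log2 fold change of -0.02 had a 95% interval from -0.09 to 0.05 (edgeR adjusted p = 0.61). KRT10, the type I keratin of upper epidermal layers, was the least abundant of the expressed members, at 12.4, 14.7 and 15.6 CPM in wild type. In the knockout it was at 21.0, 18.2 and 18.9 CPM. All knockout values were higher, on 334 to 491 counts per library. The log2 fold change was 0.44 (SE 0.09, edgeR adjusted p = 7.4e-04), and 0.34 without wild-type replicate 1, the lowest library.

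Before its neighbours on the chromosome are considered, VIM had the largest absolute log2 fold change of the 5 tested members. VIM was at 1315, 1244 and 1224 CPM in wild type and at 835, 828 and 843 CPM in the knockout. The knockout libraries were close to each other and all far below the lowest wild-type library. The log2 fold change was -0.59 (SE 0.03, edgeR adjusted p = 8.7e-09), a wild-type level 1.51 times that of the knockout.

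The other 4 members were not expressed at this depth. KRT7, the type II keratin that pairs with KRT19 in bile duct cells, had 1 count in wild-type replicate 2 and 0 in the other libraries. KRT80, found in many epithelia, had 2 counts in all in each group and no more than 1 in any library. KRT81 and KRT86 were listed at 0 in all 6 libraries. A count of 0 allows up to 3 counts, or 0.107 to 0.136 CPM depending on the library, for counting error only, and no fold is given for these genes. Since 29.4% of the windows of 100 bases along KRT81 were shared with another gene of the table, mostly KRT86, reads that fit both could have been left out, and this was not tested. KRT7 and KRT80 shared 0 such windows with other genes of the table.

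Per kilobase of transcript the order was KRT8, KRT18, VIM, KRT19 and KRT10 in both groups. In wild type the length-scaled levels were 1535 ± 38.9, 1045 ± 63.9, 675 ± 25.8, 74.0 ± 0.85 and 6.70 ± 0.79 CPM per kilobase (SD, n = 3). In the knockout they were 1721 ± 14.9, 1265 ± 11.3, 447 ± 3.89, 73.0 ± 1.51 and 9.11 ± 0.68. Neighbours in this order did not overlap in either group. Among 20171 genes with a length, KRT8 ranked between 17 and 21 over the libraries, KRT18 between 24 and 33, and VIM between 60 and 103. The order of the first pair depends on the length used: with all exons of a gene merged, KRT18 (507 CPM per kilobase) stood above KRT8 (420) in wild type.

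**Figure D2:**
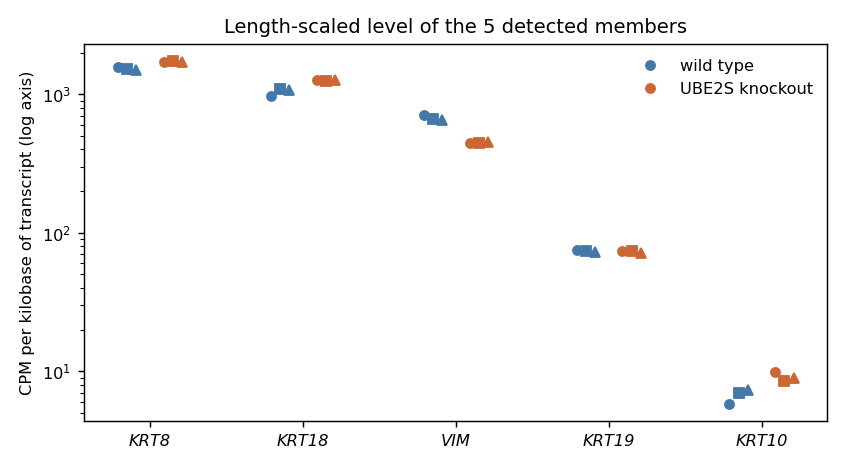
CPM per kilobase of transcript (log axis) of the 5 expressed members in each library; circles, squares and triangles are replicates 1, 2 and 3. KRT8, KRT18 and VIM lie within 1 order of magnitude, and KRT10 is the lowest.

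Since keratins work in pairs, the balance between members was also read within each library, where library scaling drops out. The ratio of KRT8 to KRT18 counts was 1.95, 1.68 and 1.69 in wild type against 1.62, 1.67 and 1.63 in the knockout. The groups were apart, but only wild-type replicate 1 was far from the knockout libraries. The difference in log2 ratio was -0.11 (exact two-sided permutation p = 0.1, the smallest that 3 against 3 allows), and -0.04 without wild-type replicate 1. Over all type II and type I members, scaled by length, the ratio was 1.497, 1.3009 and 1.3037 in wild type against 1.261, 1.3007 and 1.270 in the knockout. Its type II side was almost wholly KRT8, since the other type II members were at or near 0, so it largely repeats the first ratio. Apart from wild-type replicate 1 the values nearly touched. The log2 difference was -0.10 (exact two-sided permutation p = 0.1), and -0.03 without wild-type replicate 1. With merged exon lengths the groups of this ratio were no longer ordered apart (exact two-sided permutation p = 0.2).

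The ratio of VIM to KRT8 plus KRT18, per length, was 0.276, 0.254 and 0.255 in wild type against 0.150, 0.148 and 0.151 in the knockout. The groups were far apart relative to their spread. The log2 difference was -0.80 (exact two-sided permutation p = 0.1), and between -0.82 and -0.76 with any 1 library left out. This ratio is not corrected for VIM's neighbours on the chromosome, whose median log2 fold change was -0.41.

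**Figure D3:**
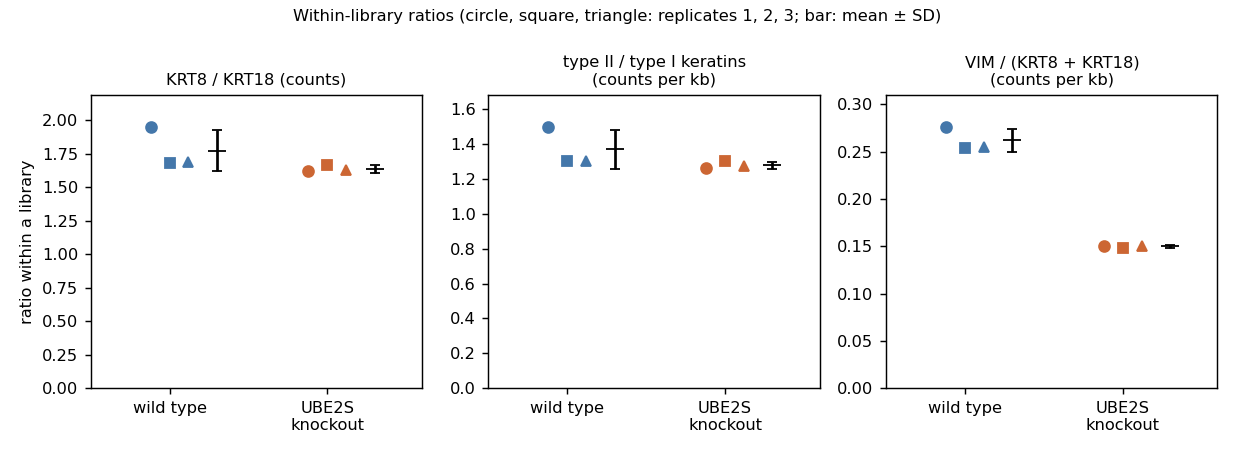
Ratios within each library (linear axes from 0): KRT8 over KRT18 counts, type II over type I keratins per kilobase, and VIM over KRT8 plus KRT18 per kilobase, with mean ± SD over 3 libraries. The first pair of ratios differ mainly through wild-type replicate 1, while VIM over KRT8 plus KRT18 is at 0.254 to 0.276 in wild type and 0.148 to 0.151 in the knockout.

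VIM lies in a stretch of chromosome 10 where most genes were lower in the knockout. Over all tested genes, 29.4% were called higher and 30.7% lower. Of the 25 tested genes on each side of VIM, spanning 12195965 to 27100498, 39 of 50 were called lower and 11 were not called. Their log2 fold changes ran from -5.32 to 0.07, with a median of -0.41. Of these neighbours, 13 fell more than VIM. VIM's immediate tested neighbours were TRDMT1 and HACD1, at -0.20 and 0.06. With the median of the neighbours subtracted, VIM was at -0.18 (edgeR-based adjusted p = 3.2e-04), a smaller absolute value than those of KRT10 and KRT18 treated likewise. That p rests on VIM's own error and does not measure the spread of the neighbours. The part of the neighbourhood in the VIM result was not tested further.

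Around the keratins the neighbours' medians were between 0.03 and 0.10. KRT8 and KRT18 share most of their neighbours, as do KRT10 and KRT19. For KRT8 and KRT18 the median of 50 neighbours was 0.03 and 0.05, and for KRT10 and KRT19 it was 0.05 and 0.10. With these subtracted, KRT8 (0.13), KRT18 (0.22) and KRT10 (0.39) were still called higher. KRT19 was then at -0.12 and called lower (edgeR-based adjusted p = 0.0077). These calls rest on each member's own error and do not measure the spread of its neighbours. Of the 50 neighbours of KRT19, 23 were called higher and 8 lower, beside 29.4% and 30.7% of all tested genes. The log2 fold changes of these neighbours ran from -2.35 to 2.07, and 15 lay below that of KRT19.

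**Figure D4:**
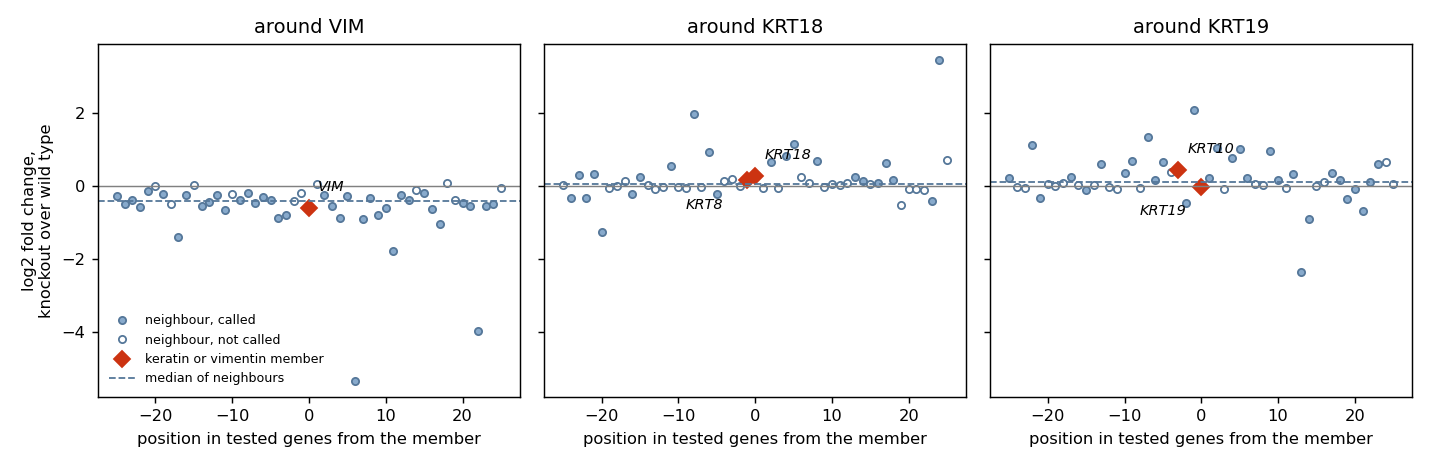
Log2 fold change of the 25 tested genes on each side of VIM, KRT18 and KRT19 by their order along the chromosome, with keratin or vimentin members in red, called neighbours filled, and the median of the neighbours dashed. Around VIM the median is -0.41; around KRT18 and KRT19 it is 0.05 and 0.10.

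The other keratin genes were mostly undetected. Of 21 other type II keratins 19 had 0 counts in all libraries and 0 were abundant enough to test; KRT4 and KRT5, the only ones with a count, had 17 and 2 counts in all 6 libraries. Of 25 other type I keratins 13 were at 0 and 2 were tested. KRT222, in neither list and named after its values were seen, was also tested. It was not called (log2 fold change 0.38, SE 0.16, edgeR adjusted p = 0.055). KRT23, a keratin of simple epithelia, was at 28.8, 25.1 and 25.6 CPM in wild type and at 17.7, 20.5 and 19.5 CPM in the knockout. It fell and the groups were apart (log2 fold change -0.46, SE 0.07, edgeR adjusted p = 9.3e-05), next to KRT10, which rose. KRT37, a hair keratin gene named after its values were seen, rose from 23 counts to 89, a depth-scaled ratio of knockout to wild type of 4.25 (95% counting interval 2.66 to 7.05).

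Among 14 other intermediate filament genes, 6 were tested, 4 rose and 1 fell, with a median log2 fold change of 0.24 against -0.00057 over all tested genes, of which 29.4% were called higher and 30.7% lower. Nestin (NES), a large filament protein that co-assembles with vimentin, was at 397, 392 and 371 CPM in wild type and at 664, 637 and 640 CPM in the knockout. It rose where VIM fell (log2 fold change 0.74, SE 0.03, edgeR adjusted p = 1.9e-09). SYNM, the gene of synemin, another partner of vimentin, rose by 0.30 (SE 0.03). Of the nuclear lamins, LMNB1 rose by 0.30 (SE 0.03) and LMNA, named after its values were seen, by 0.18 (SE 0.03). LMNB2, at 309 ± 5.04 CPM in wild type, fell to 224 ± 6.79 CPM (SD, n = 3), a log2 fold change of -0.47 (SE 0.03). The desmin and glial filament genes were not abundant enough to test.

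Plakins and desmosomal plaque proteins tie the filaments to junctions and to other fibres. Of 11 genes 10 were tested, 5 rose and 3 fell, with a median of 0.05, beside 29.4% of all tested genes called higher and 30.7% lower. Periplakin (PPL) rose from 32.1 to 43.6 CPM and envoplakin (EVPL), its partner, from 61 to 136 counts in all. The plaque gene PKP2 rose from 120 ± 5.39 to 166 ± 5.20 CPM (SD, n = 3; log2 fold change 0.47, SE 0.04, edgeR adjusted p = 4.2e-07), while its paralogue PKP3 fell from 303 counts to 5, a depth-scaled ratio of wild type to knockout of 55.1 (95% counting interval 23.4 to 171). Desmoplakin (DSP), which anchors keratins at desmosomes, fell with a log2 fold change of -0.11 (edgeR adjusted p = 0.0087). MACF1, a crosslinker of actin and microtubules, also fell, by 0.08 (edgeR adjusted p = 0.021), a call that was lost without any 1 of the 3 knockout libraries (edgeR adjusted p = 0.061, 0.057 and 0.098).

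**Figure D5:**
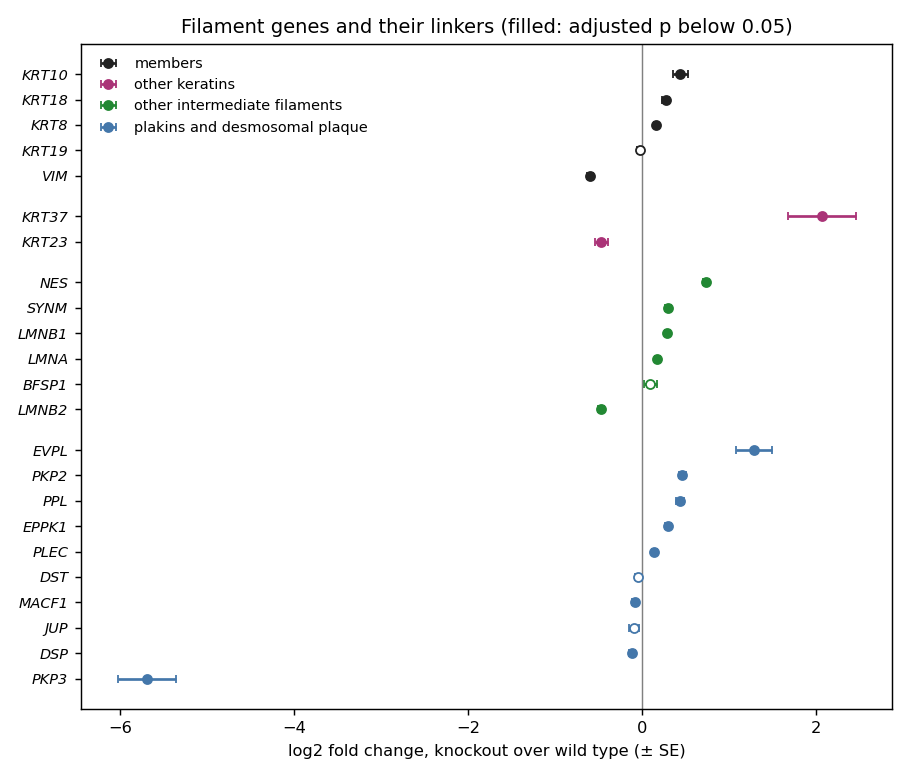
Log2 fold change of knockout over wild type ± SE for the tested members, other keratins, other intermediate filament genes, and plakins and desmosomal plaque genes; filled points have an adjusted p below 0.05. VIM, KRT23, LMNB2 and PKP3 lie to the left of 0, and KRT8, KRT18, KRT10, NES and PKP2 to the right.

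Of 13 genes whose proteins organise or bind keratins, 3 rose and 5 fell (median 0.0013). Over all tested genes the shares were 29.4% higher and 30.7% lower. FAM83H, which recruits a casein kinase to keratin filaments, was at 22.8 CPM in wild type and fell to 15.3 CPM (log2 fold change -0.58, SE 0.06). FBF1, a keratin-binding protein, rose by 0.48 (SE 0.06). In the family of phosphoserine-binding adaptors that bind phosphorylated KRT18, SFN was nearly lost, from 582 counts to 7, a depth-scaled ratio of wild type to knockout of 75.6 (95% counting interval 36.5 to 189). YWHAH fell by 0.41 (SE 0.03), and so did YWHAG, by 0.24 (SE 0.03). YWHAQ and YWHAZ rose by 0.18 and 0.12 (SE 0.03 for both). YWHAE, at 644 CPM the most abundant, and YWHAB did not pass the test, with log2 fold changes of 0.0013 and 0.06. YWHAG, YWHAE and YWHAB were named after their values were seen.

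Among 10606 tested genes averaging 5 CPM or more, those closest to VIM in their pattern over the 6 libraries were GAMT, SH3GL1 and MPST. Their root mean square distance from VIM was 0.0090, 0.010 and 0.014 in centred log2 CPM. Closest to KRT10, the other member with the largest change, were IL17RC, E2F6 and ZNF408, at 0.038, 0.039 and 0.043. With 2 groups, such a distance mostly reads the size of the group difference.

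Markers of other cells were read beside these results, because in bulk RNA fewer cells of a type and less RNA per cell cannot be told apart. The counts of calls stand beside 29.4% of all tested genes called higher and 30.7% called lower. Of 8 stromal markers 5 were tested, 4 rose (3 with some libraries left out) and 1 fell. The 1 that fell was LUM, named after its values were seen, with 78 counts in wild type and 17 in the knockout. The summed level of the stromal markers was 16.6 to 16.8 CPM in wild type and 26.5 to 28.4 CPM in the knockout. The stromal markers DCN and THY1 had 6 and 5 counts in all libraries together. PDGFRB rose from 7.36 to 14.3 CPM. Of 6 endothelial markers the 1 tested, PECAM1, fell, with KDR and EMCN at 0 and a summed level of 5.51 to 6.82 CPM in wild type and 2.27 to 2.52 CPM in the knockout. Of 6 immune markers the 3 tested fell (LYZ from 280 to 168 CPM, CD68 from 16.8 to 8.38 and CD14 from 6.52 to 4.66), with CD3E and MS4A1 at 0, PTPRC at 11 counts in wild type and 2 in the knockout, and a summed level of 290 to 313 against 179 to 182 CPM. Of 8 bile duct markers 6 were tested, 1 rose (SPP1, from 2.91 to 17.9 CPM) and 2 fell (SOX9, from 215 to 161 CPM, and EPCAM, from 21.7 to 17.1 CPM), and their sum was 265 to 296 CPM in wild type and 235 to 238 CPM in the knockout. Of the 10 hepatocyte markers 2 rose and 7 fell, with a summed level of 18989 to 19568 CPM in wild type and 17214 to 17432 CPM in the knockout. The part of these markers in the keratin and vimentin results was not tested.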

How the data were processed

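Per the labels' protocols, RNA was extracted with Trizol, enriched on oligo(dT) beads and sequenced on an Illumina instrument. Tools named without a role in the submitters' processing notes are HISAT2, StringTie 1.3.1, Bowtie2 2.2.8 and DESeq2 (counting program and genome build: not given in the sources used here). The authors deposited estimated counts per gene, not normalized, which were rounded to whole numbers here. Groups and replicate numbers come from the sample titles.

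Genes were kept by filterByExpr (minimum count 10), scaled by TMM and tested with quasi-likelihood F tests in edgeR 4.0.16 (R 4.3.3), with Benjamini-Hochberg adjustment over all 13265 tested genes. Standard errors were derived from the fold change and its F statistic. DESeq2 1.42.0 and limma-voom (limma 3.58.1) were alternatives. The tests were checked on simulated data with few changed genes, whereas 60.1% of tested genes were called here. So broad a change was not simulated. Ratios were compared by exact permutation over 20 splits. Positions, transcripts and lengths came from GENCODE 29, matched by identifier for 20171 genes (99.4%); 1 basic transcript with the best APPRIS rank was used per gene. Counting intervals are exact binomial at 95%, and cover counting error only. In the neighbour analysis the error of the neighbours' median was ignored.

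The members and gene lists were chosen with earlier results of these data known. Named genes are UBE2S, all members, and in each list up to 3 called genes per direction with a mean of at least 1 CPM, or, with no call, the 2 most abundant. For VIM and the most changed other member, the 3 genes closest in pattern were added, and each member's immediate neighbours for position. The rod-start sequences of the remaining 2 members are not reported here.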

Additional observations from a re-analysis of the deposited data

How the results depend on the processing

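KRT8, KRT18 and KRT10 were called higher and VIM lower under each of the 14 alternatives that changed the scaling, filter, tool, threshold, replicate block or libraries, and KRT19 was not called in any of them. VIM ranged from -0.62 to -0.56, KRT18 from 0.23 to 0.31, KRT8 from 0.15 to 0.18 and KRT10 from 0.34 to 0.52. Over all genes, 3092 to 4115 were called higher and 3380 to 4342 lower. With the median of 25 neighbours on each side subtracted, 2 members in place of 1 were called lower, KRT19 (-0.12) in addition to VIM (-0.18); the error of that median was not modelled. Leaving out 1 library moved the log2 difference of the KRT8 to KRT18 ratio between -0.15 and -0.04 and that of type II to type I keratins between -0.13 and -0.03, in both cases least without wild-type replicate 1. Same-numbered libraries did not deviate together (correlations of 0.0097, -0.014 and 0.0094), so the numbers were not taken as pairs; with the replicate block 3872 genes were called higher and 4041 lower, and the ratio differences had an exact sign-flip p of 0.25, the smallest that 3 pairs allow. Merged exon lengths for the ratios, and leaving out libraries for the gene lists, were added after the data were seen; CDK1 lost its call without 5 of the 6 libraries. Depth limits only the members at or near 0.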

Other observations

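Of 10 transcription factor genes of epithelial differentiation 4 were abundant enough to test, and these 4 fell, beside 30.7% of all tested genes called lower. The other 6 were not tested, and GRHL2 among them, named after its values were seen, had 18 counts in wild type and 39 in the knockout. KLF5 was at 56.9 ± 2.89 CPM in wild type and 21.3 ± 1.20 in the knockout (SD, n = 3; log2 fold change -1.42, SE 0.06, edgeR adjusted p = 7.7e-10), ELF3 by 0.35 (SE 0.05) and GRHL1 by 0.32 (SE 0.06). TP63, the master factor of basal epithelium, named after its values were seen, had 85 counts in wild type and 15 in the knockout. Of 8 keratinocyte markers 4 were tested, and of these 2 rose, 1 fell and 1 was not called. Over all tested genes the shares were 29.4% higher and 30.7% lower. DSG3, a desmosomal cadherin, fell from 452 counts to 3, a depth-scaled ratio of wild type to knockout of 137 (95% counting interval 46.6 to 667), while FLG and DSC3, also named after their values were seen, rose from 10 to 58 and from 20 to 88 counts.

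Among 10 kinases that phosphorylate keratins or vimentin, 4 rose and 2 fell, with a median log2 fold change of 0.07. Over all tested genes the shares were 29.4% higher and 30.7% lower. Only 1 to 4 of the kinases were called higher with any 1 library left out. PAK1 rose by 0.37 (SE 0.05), whereas its paralogue PAK2 fell by 0.23 (SE 0.03). PRKCD fell by 0.33 (SE 0.08). MAPK14 was called higher at 0.16 (SE 0.06), with 77.2 CPM in wild-type replicate 1 against 93.7 and 92.9 in replicates 2 and 3, and was at 0.08 without replicate 1. Its call was lost without any 1 of the 3 knockout libraries (edgeR adjusted p = 0.050, 0.13 and 0.094). The groups of PLK1 (0.13, SE 0.05) overlapped, and its call was lost without any 1 of 4 libraries: wild-type replicate 2 (edgeR adjusted p = 0.10), wild-type replicate 3 (0.13, with a log2 fold change of 0.09), and knockout replicates 2 (0.093) and 3 (0.11).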
